A study of Rattus norvegicus with 4 samples.

Results

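The 10 enzymes described here make serine from a glycolytic intermediate and pass its carbon through the folate pathway. They were chosen by gene name: Phgdh, Psat1 and Psph of serine synthesis, Shmt1 and Shmt2, which exchange serine and glycine, Mthfd2, Mthfd1l and Aldh1l2 of the mitochondrial folate arm, and Mthfd1 and Aldh1l1 of the cytosolic arm. All 10 were found among the 17147 gene names of the deposited table, and all 10 passed the filter on low values. RNA was sequenced from neonatal rat ventricular myocytes, which are primary heart muscle cells of newborn rats, labelled as coming from the left ventricle and cultured without serum in DMEM with a Nutridoma supplement. Cells received TMP195, a selective inhibitor of the class IIa histone deacetylases, at 3 µM for 48 h (2 libraries), or the solvent DMSO for 48 h as vehicle (2 libraries). No strain, genotype or sex is given in the labels. The labels do not say whether libraries of a group came from separate cultures. The p-values therefore describe only these 4 libraries, and the spread between libraries that they use may be technical.

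In this pathway phosphoglycerate dehydrogenase (Phgdh) draws carbon from glycolysis, phosphoserine aminotransferase (Psat1) adds the amino group from glutamate, and phosphoserine phosphatase (Psph) releases serine. The serine hydroxymethyltransferases move a carbon of serine onto tetrahydrofolate, leaving glycine, and the folate enzymes carry that carbon to purines, to thymidylate and to methionine. Mitochondria oxidise it to formate, which the cytosol takes up again. In human and mouse cells the transcription factor ATF4 is known to induce several of these genes. In mouse hearts with faulty mitochondria some of these enzymes, not all, are known to be induced.

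The promoters of a folate enzyme and a serine synthesis enzyme that rose with TMP195, and of the serine synthesis enzyme that did not, are shown to give the sequence context of the genes whose values follow. They come from the RefSeq promoter table of build GRCr8, which matched 8 of the 10 genes, and each runs 5′ to 3′ from 250 bases before the annotated start to 50 bases from it on. Capitals mark every match, on either strand, to TGATGNAA (the core of the composite element of C/EBP and ATF factors), TGACNNNGC (the core of the antioxidant element), CACGTG (the E box) or CCAAT (the box bound by NF-Y). No matches overlapped in these promoters.
Mthfd2 at chr4:117380301-117380600, minus strand: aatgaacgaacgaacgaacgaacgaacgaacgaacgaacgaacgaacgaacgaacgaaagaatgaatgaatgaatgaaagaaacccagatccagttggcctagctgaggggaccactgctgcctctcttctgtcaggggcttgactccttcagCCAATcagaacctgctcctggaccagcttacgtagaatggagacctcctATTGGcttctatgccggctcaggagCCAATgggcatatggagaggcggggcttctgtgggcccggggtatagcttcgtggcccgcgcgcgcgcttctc
Phgdh at chr2:188624740-188625039, minus strand: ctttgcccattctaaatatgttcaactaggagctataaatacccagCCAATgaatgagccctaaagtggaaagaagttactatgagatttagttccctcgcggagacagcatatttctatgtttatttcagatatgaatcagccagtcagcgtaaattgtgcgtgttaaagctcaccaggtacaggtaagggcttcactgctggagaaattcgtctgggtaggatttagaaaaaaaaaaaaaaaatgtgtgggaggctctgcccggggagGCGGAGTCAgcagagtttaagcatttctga
Psat1 at chr1:222645359-222645658, minus strand: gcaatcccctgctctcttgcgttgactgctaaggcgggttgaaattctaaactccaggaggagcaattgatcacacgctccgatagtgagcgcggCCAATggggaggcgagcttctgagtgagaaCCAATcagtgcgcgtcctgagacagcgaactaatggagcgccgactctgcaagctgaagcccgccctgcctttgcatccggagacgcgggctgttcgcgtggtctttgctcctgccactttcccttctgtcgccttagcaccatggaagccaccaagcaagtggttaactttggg

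The Mthfd2 promoter held 3 CCAAT matches, at positions -97 to -93, -48 to -44 and -23 to -19 from the start. The Psat1 promoter held 2, at -155 to -151 and -125 to -121. The Phgdh promoter held 1 CCAAT match and, at positions 21 to 29, the antioxidant core. CCAAT matched in 5 of 8 enzyme promoters, against 37.5% of all 33469 promoters of the table. TGACNNNGC matched in 1 of 8, against 12.1% of all, and CACGTG in 1 of 8 (Shmt1, with 2 matches), against 6.42% of all. TGATGNAA matched in 0 of 8, against 3.98% of all, which says only that these letters are not in these windows.

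Transcripts of 5 of the 10 enzymes rose with TMP195, by 1.48-fold to 1.84-fold: Mthfd2, Shmt2, Phgdh, Psph and Shmt1. Mthfd1, Mthfd1l, Aldh1l1 and Aldh1l2 did not pass the test, and Psat1 lay just short of it with lower values under TMP195. Across all 12689 genes tested with limma, 9.93% were called higher and 10.3% lower at a Benjamini-Hochberg adjusted p under 0.05, which is the background to the 5 of 10 enzymes called higher. The enzymes and the gene lists below were chosen with earlier results of these data known, so their shares are descriptions and not tests. The median log2 fold change was 0.37 over the 10 enzymes and -0.01 over all genes tested. In the same test 0 of 10 were called lower, although 1 (Psat1) had an unadjusted p under 0.05, and limma-voom, another form of the test, called it lower. Both TMP195 libraries lay above both vehicle libraries in 5 of 10 enzymes, against 28% of all genes, and below them in 1 of 10, against 28.7%. In such bulk samples fewer cells of a type and less RNA per cell cannot be told apart.

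**Figure D1:**
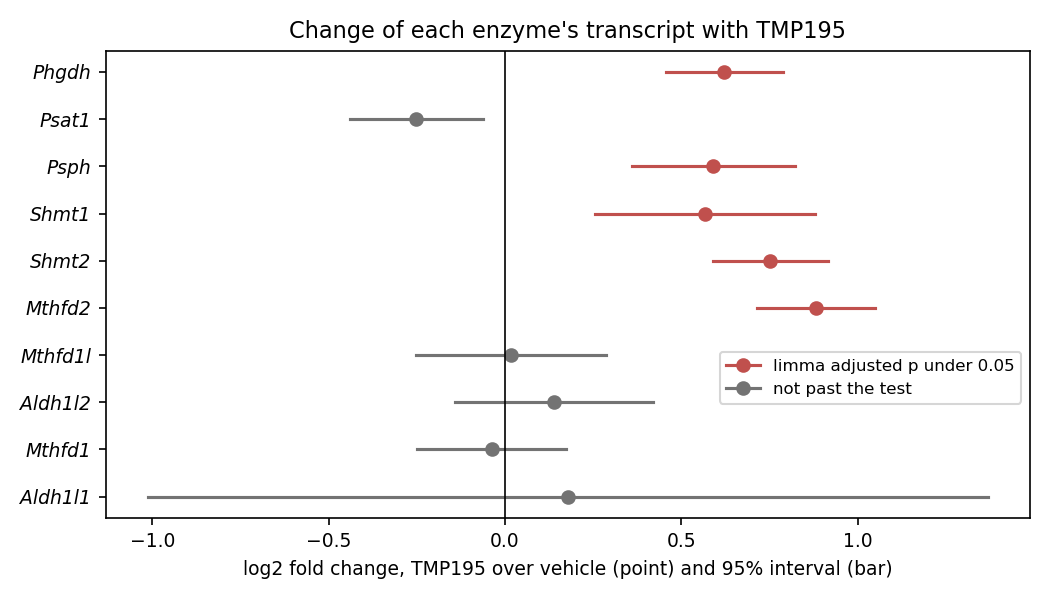
The log2 fold change of each enzyme's transcript, TMP195 over vehicle (horizontal axis, points), with its 95% interval from limma (bars), in order of role. The 5 coloured genes passed the test with log2 fold changes of 0.57 to 0.88, while the intervals of Mthfd1l, Aldh1l2, Mthfd1 and Aldh1l1 hold 0 and that of Psat1 lies below it.

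Per length, the transcripts of Shmt2, Phgdh and Mthfd2 were the most abundant in both groups. The authors' FPKM values of the 10 enzymes summed to 452.7 and 465.9 in the TMP195 libraries, against 313 and 315 in the vehicle libraries. Shmt2, Phgdh and Mthfd2 together made up 69.7% and 72.0% of that sum with TMP195, against 62.5% and 62.1% with vehicle. At the other end, Aldh1l1, an enzyme best known from liver and from astrocytes, had 0.277 and 0.467 FPKM with TMP195 and 0.217 and 0.453 FPKM with vehicle.

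**Figure D2:**
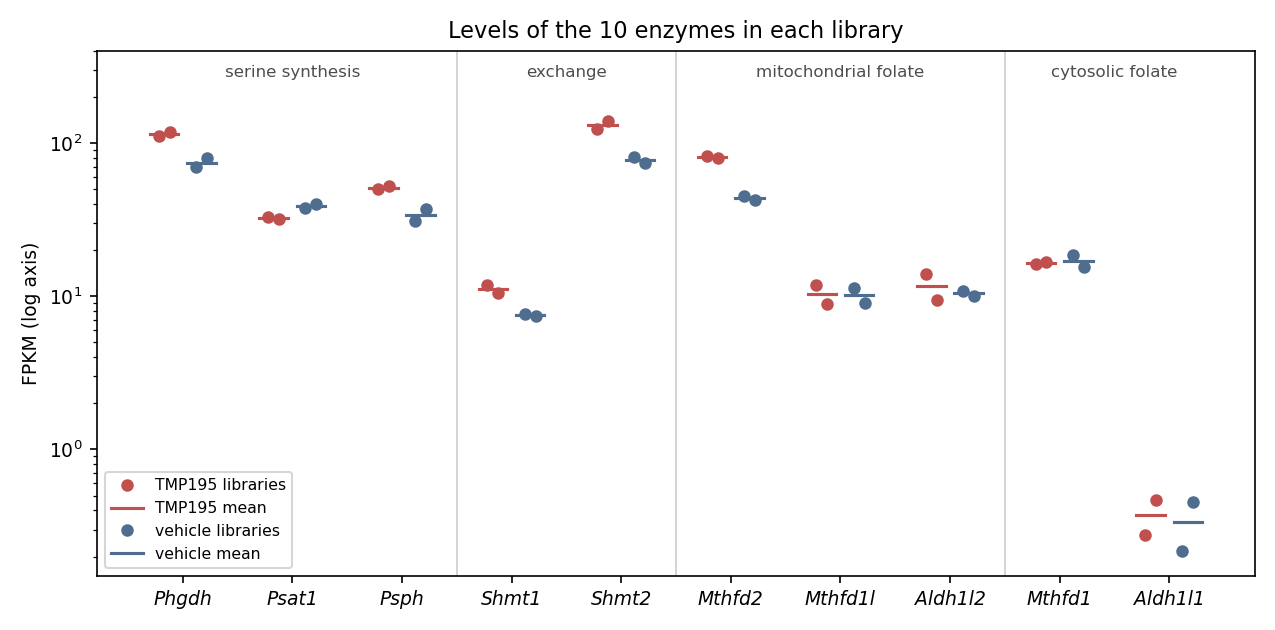
FPKM of each enzyme (vertical log axis) in the 2 TMP195 and 2 vehicle libraries, with group means as lines. Both TMP195 libraries lie above both vehicle libraries for Phgdh, Psph, Shmt1, Shmt2 and Mthfd2 and below them for Psat1, and the groups overlap for the other 4 genes.

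The order of the levels differed between the groups in the middle of the range. With TMP195 Psph (49.9 and 52.2 FPKM) stood above Psat1 (33.1 and 32.1 FPKM), and with vehicle Psph (31.0 and 37.0 FPKM) stood below Psat1 (37.8 and 39.8 FPKM). Neighbours whose libraries overlapped, and whose order is therefore not resolved, were Aldh1l2, Shmt1 and Mthfd1l with TMP195, at means of 11.7, 11.2 and 10.3 FPKM. With vehicle they were Shmt2 and Phgdh, at 77.3 and 74.5 FPKM, and Aldh1l2 and Mthfd1l, at 10.5 and 10.2 FPKM.

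The values below are the authors' deposited fragment counts scaled by 1 factor per library, called scaled fragments, and fold changes are from limma on log2(value + 1). All 40 values of the 10 enzymes were whole multiples of their library's step, and apart from Aldh1l1 they rested on 182 to 3732 sequenced fragments.

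Phgdh, the first and rate-setting enzyme of serine synthesis, had 2497 and 2655 scaled fragments in the TMP195 libraries, against 1559.8 and 1792 in the vehicle libraries. Both TMP195 libraries were above both vehicle libraries, and the gene rose 1.54-fold (95% interval 1.37 to 1.73; limma adjusted p = 9.63e-07). Its group values were 2576 ± 111 with TMP195 and 1676 ± 165 with vehicle (mean ± SD of scaled fragments, n = 2 each).

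Psph, which releases free serine in the last step, had 659 and 689 scaled fragments with TMP195, against 409 and 489 with vehicle. The groups did not overlap and the gene rose 1.51-fold (95% interval 1.28 to 1.77; limma adjusted p = 0.000239). The vehicle libraries were further apart than the TMP195 libraries, with SDs of 20.9 with TMP195 and 56.6 with vehicle.

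Psat1, the aminotransferase between these steps, had 853 and 826 scaled fragments with TMP195, against 974.8 and 1026 with vehicle. Both TMP195 libraries were below both vehicle libraries, the opposite side from Phgdh and Psph. The log2 fold change was -0.25 (95% interval -0.44 to -0.06), with an unadjusted p of 0.0105 and a limma adjusted p of 0.0514. It passed in 5 of 9 alternative settings with all 4 libraries (limma adjusted p from 0.0237 to 0.0448) and missed in the other 4 (0.0584 to 0.0745).

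The serine hydroxymethyltransferases of both compartments rose. Shmt2, the mitochondrial enzyme, had 3176 and 3579 scaled fragments with TMP195, against 2100.3 and 1905 with vehicle, and rose 1.69-fold (95% interval 1.51 to 1.89; limma adjusted p = 2.15e-08). Shmt1, the cytosolic enzyme, had 308 and 273 scaled fragments with TMP195, against 199 and 192 with vehicle. It rose 1.48-fold (95% interval 1.19 to 1.84; limma adjusted p = 0.00733), with no overlap between the groups.

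Of the mitochondrial folate enzymes 1 of 3 rose. Mthfd2 oxidises methylene-tetrahydrofolate to formyl-tetrahydrofolate and is known as an enzyme of embryonic and proliferating tissue that is low in most adult organs. It had 2139.8 and 2071 scaled fragments with TMP195, against 1178 and 1107 with vehicle. Its rise of 1.84-fold (95% interval 1.64 to 2.07; limma adjusted p = 2.06e-09) was the largest of the 10, and 96.0% of all genes tested had a lower log2 fold change. Each group was tight, at 2105 ± 48.9 with TMP195 and 1142 ± 50.1 with vehicle (mean ± SD of scaled fragments, n = 2 each).

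Mthfd1l, which releases formate in the next mitochondrial step, had 552 and 415 scaled fragments with TMP195, against 528 and 424 with vehicle. Both groups spread widely and overlapped, and the log2 fold change was 0.02 (95% interval -0.25 to 0.29; limma adjusted p = 0.955). The upper bound of its fold change, 1.22, lies below the lower bound of 1.64 for Mthfd2.

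Aldh1l2, which instead burns formyl-tetrahydrofolate to carbon dioxide and makes NADPH, had 567 and 387 scaled fragments with TMP195, against 443 and 409 with vehicle. The vehicle libraries lay between the TMP195 libraries, and the log2 fold change was 0.14 (95% interval -0.14 to 0.42; limma adjusted p = 0.539). Its direction rested on single libraries: the log2 fold change was -0.13 without TMP195 replicate 1 and 0.41 without TMP195 replicate 2.

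Neither cytosolic folate enzyme changed past the test. Mthfd1, the trifunctional enzyme that takes formate back into the folate pool, had 716 and 740.4 scaled fragments with TMP195, against 820.2 and 681 with vehicle. The TMP195 libraries lay between the vehicle libraries, and the log2 fold change was -0.04 (95% interval -0.25 to 0.17; limma adjusted p = 0.852). Aldh1l1, the cytosolic counterpart of Aldh1l2, rested on 11 and 17 fragments with TMP195, against 8 and 15 with vehicle. A change from 0.495-fold to 2.58-fold lies within its 95% interval, so a difference of the size seen in the other enzymes was not detectable at this depth.

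Some of these enzymes stood in different proportions in the 2 groups, and other pairs overlapped. Mthfd2 had 5.03 and 4.71 times the FPKM of Mthfd1 with TMP195, against 2.42 and 2.74 times with vehicle. Phgdh had 3.35 and 3.68 times the FPKM of Psat1 with TMP195, against 1.83 and 2.00 times with vehicle. The groups did not overlap in either ratio. Shmt2 had 10.3 and 13.1 times the FPKM of Shmt1 with TMP195, against 10.6 and 9.94 times with vehicle, which overlap.

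The ratio of Mthfd1l to Mthfd1 (0.726 and 0.528 with TMP195, 0.607 and 0.587 with vehicle) overlapped too, as did that of Aldh1l2 to Aldh1l1. Within the mitochondrial arm, Mthfd2 had 6.94 and 8.92 times the FPKM of Mthfd1l with TMP195, against 3.99 and 4.67 times with vehicle. With 2 libraries against 2, an exact two-sided permutation test cannot go below p = 0.333, so these ratios are descriptions. The ratios of Phgdh to Psat1 and of Mthfd2 to Mthfd1l were added after the values were seen.

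**Figure D3:**
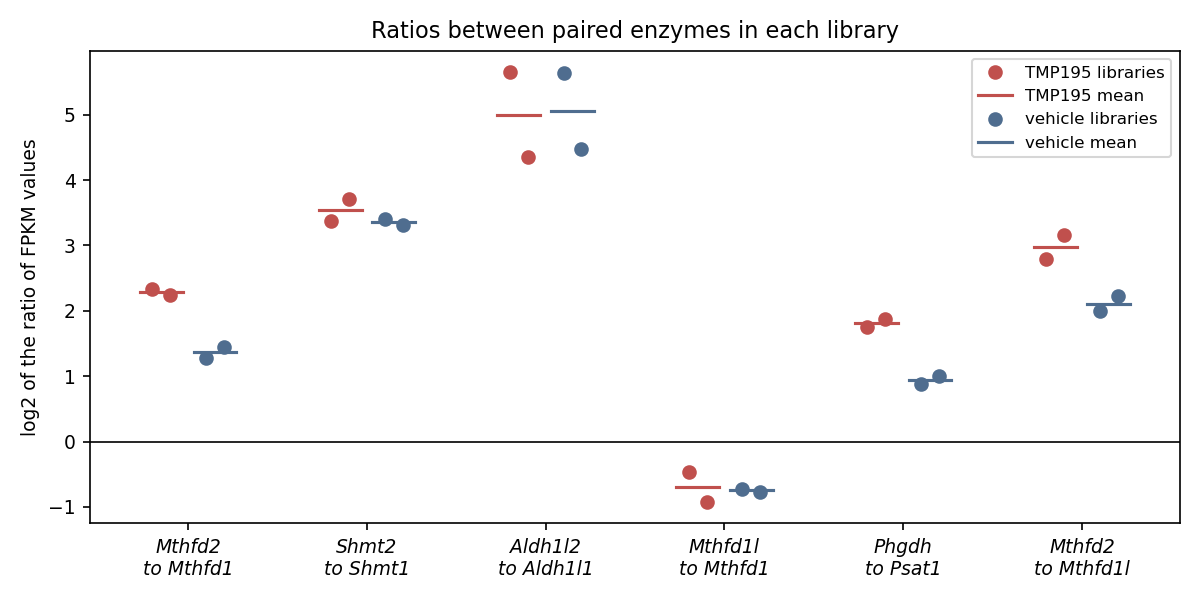
The log2 ratio of FPKM between paired enzymes (vertical axis) in the 2 TMP195 and 2 vehicle libraries, with group means as lines. The ratios of Mthfd2 to Mthfd1, Phgdh to Psat1 and Mthfd2 to Mthfd1l are higher in both TMP195 libraries, and the other 3 overlap between the groups.

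The authors' deposited table of FPKM values holds 10673 genes, with 594 in its sheet of higher genes and 623 in that of lower genes. Of the 10 enzymes, 2 stand in the authors' deposited sheet of higher genes and 0 in that of lower genes. The authors' deposited table gives Mthfd2 a ratio of 1.84 (deposited p = 0.00264) and Phgdh one of 1.54 (deposited p = 0.0321). In the authors' deposited table Shmt2 (deposited p = 0.0526), Psat1 (0.0537), Psph (0.0815) and Shmt1 (0.101) are in neither sheet. Which test gave the deposited p-values is not stated there.

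Of 13 further folate enzymes and carriers tested, 3 rose, 0 fell in the limma test (0 also at an unadjusted p under 0.05 and with limma-voom) and 10 did not pass, with a median log2 fold change of 0.10. Fpgs, which adds the glutamate tail that keeps folates in the cell, had 381 and 336 scaled fragments with TMP195, against 249 and 211 with vehicle, and rose 1.56-fold (limma adjusted p = 0.00152). Slc25a32, the mitochondrial folate carrier, rose 1.34-fold (limma adjusted p = 0.0314), and Sfxn1, which carries serine into mitochondria, rose 1.23-fold (limma adjusted p = 0.0355). Mthfd2l, a close relative of Mthfd2 in the same compartment, had 123 and 109.3 scaled fragments with TMP195 and 109.0 and 103 with vehicle (log2 fold change 0.13, limma adjusted p = 0.748). The call of Slc25a32 ended when all genes above 0 were tested, and that of Sfxn1 there, with a pseudocount of 0.1 and with scaling by library total.

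Thymidylate synthesis and nucleotide supply use the same folate pool. Of 10 genes tested, 3 fell, 0 rose in the limma test (0 also at an unadjusted p under 0.05 and with limma-voom) and 7 did not pass, with a median log2 fold change of -0.49. Rrm2, a subunit of ribonucleotide reductase, had 457 and 445 scaled fragments with TMP195, against 929 and 978 with vehicle (0.473-fold, limma adjusted p = 3e-09). Tk1, the thymidine kinase of dividing cells, fell to 0.529-fold of vehicle (limma adjusted p = 6.23e-06) and Rrm1 to 0.691-fold (limma adjusted p = 2.09e-05). Tyms, thymidylate synthase, had 295 and 228 scaled fragments with TMP195, against 332 and 346 with vehicle (log2 fold change -0.38, limma adjusted p = 0.0617). It passed as lower in 4 of the 9 alternative settings with all 4 libraries (limma adjusted p from 0.0345 to 0.0485) and missed in the other 5 (0.0634 to 0.126). Of the 10 genes, 6 were lower at an unadjusted p under 0.05 and 4 were called lower by limma-voom.

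Purine synthesis, which takes formyl groups from folate, had 4 genes higher and 1 lower of 12 tested, with a median log2 fold change of 0.17. Impdh1, which commits purines to guanine nucleotides, rose 1.51-fold (limma adjusted p = 0.000208), and its relative Impdh2 rose 1.26-fold. Adsl and Paics rose by log2 fold changes of 0.31 and 0.25, while Prps2, which makes the ribose donor, fell (log2 fold change -0.66, limma adjusted p = 0.00351). Gart and Atic, the enzymes that take these formyl groups, had log2 fold changes of 0.21 and 0.12 and did not pass.

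The methionine cycle had 4 of 11 tested genes higher and 0 lower in the limma test (0 also at an unadjusted p under 0.05 and with limma-voom), with a median log2 fold change of 0.17. Mat2b and Mat2a, subunits of the enzyme that makes S-adenosylmethionine, rose 1.44-fold and 1.21-fold (limma adjusted p = 0.00155 and 0.0260), and the call of Mat2a ended when all genes above 0 were tested (limma adjusted p = 0.0651). Mtr, methionine synthase, which takes its methyl group from folate, had 838 and 862 scaled fragments with TMP195, against 614 and 696 with vehicle, and rose 1.30-fold (limma adjusted p = 0.00617). Amd1, which decarboxylates S-adenosylmethionine for polyamines, rose 1.16-fold, a call that 5 of the 9 alternative settings ended.

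A list of glycine cleavage, which also feeds the folate pool, and methylglycine oxidation had 1 of 8 genes higher, against 9.93% of all genes tested. That gene, Dld, is shared with other dehydrogenase complexes and rose 1.31-fold (limma adjusted p = 0.000146). Gldc, the decarboxylase particular to glycine cleavage, had 6.15 and 5.75 scaled fragments with TMP195 and 4.74 and 4.21 with vehicle, too few to show a change of this size. Sardh, which oxidises sarcosine, had a log2 fold change of 0.23 (limma adjusted p = 0.360). Pipox and Dmgdh, of the same list, lay lower with TMP195 at values near 0 and did not pass. Pipox had 1.76 and 0 scaled fragments with TMP195, against 7.59 and 4.21 with vehicle (limma adjusted p = 0.163). Dmgdh had 0 and 0 with TMP195, against 4.74 and 1.05 with vehicle (limma adjusted p = 0.347).

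Carriers bring serine and glycine into the cell. Of 7 tested, 4 rose, 0 fell in the limma test (1, Slc38a4, was lower at an unadjusted p under 0.05 and was called by limma-voom) and 3 did not pass, with a median log2 fold change of 0.30. Slc6a9, the glycine transporter GlyT1, had 1538 and 1613 scaled fragments with TMP195, against 953 and 962 with vehicle, and rose 1.64-fold (limma adjusted p = 1.88e-07). Slc38a1 and Slc38a2, sodium-coupled carriers of small neutral amino acids, rose 1.33-fold and 1.24-fold (limma adjusted p = 7.71e-05 and 0.00117). Slc1a4, a serine and alanine exchanger, rose 1.23-fold (limma adjusted p = 0.0362), a call lost in 3 of the 9 alternative settings.

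Among 18 genes that use serine or glycine, 2 rose and 4 fell, with a median log2 fold change of 0.05. Of all genes tested, 9.93% were called higher and 10.3% lower. At an unadjusted p under 0.05 in limma, 3 of the 18 were higher and 6 lower. The limma-voom fit called 2 of them higher and 5 lower. Cth, which makes cysteine from the serine-derived cystathionine, had 226 and 223 scaled fragments with TMP195, against 156 and 105 with vehicle, and rose 1.75-fold (limma adjusted p = 0.00235). Serinc2, Serinc5 and Serinc3, membrane proteins named for serine incorporation into lipids, fell, with log2 fold changes of -1.17, -0.68 and -0.26. Gatm, which uses glycine for creatine synthesis, fell to 0.636-fold of vehicle (limma adjusted p = 0.000950). In the glycolytic steps around the branch point of serine synthesis, 1 of 8 genes rose (Pgam2, the muscle phosphoglycerate mutase, 1.29-fold), 1 fell (Bpgm, 0.735-fold) and the median log2 fold change was 0.09. These glycolytic counts stand beside the same 9.93% and 10.3% of all genes tested. At an unadjusted p under 0.05 in limma, 3 of these 8 were higher and 1 lower. Pgam1 and Pkm were higher in both TMP195 libraries without passing (1.14-fold and 1.11-fold, limma adjusted p = 0.0565 and 0.126). Pgam1 passed with minimum means of 10 and of 100 and with scaling by trimmed means.

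**Figure D4:**
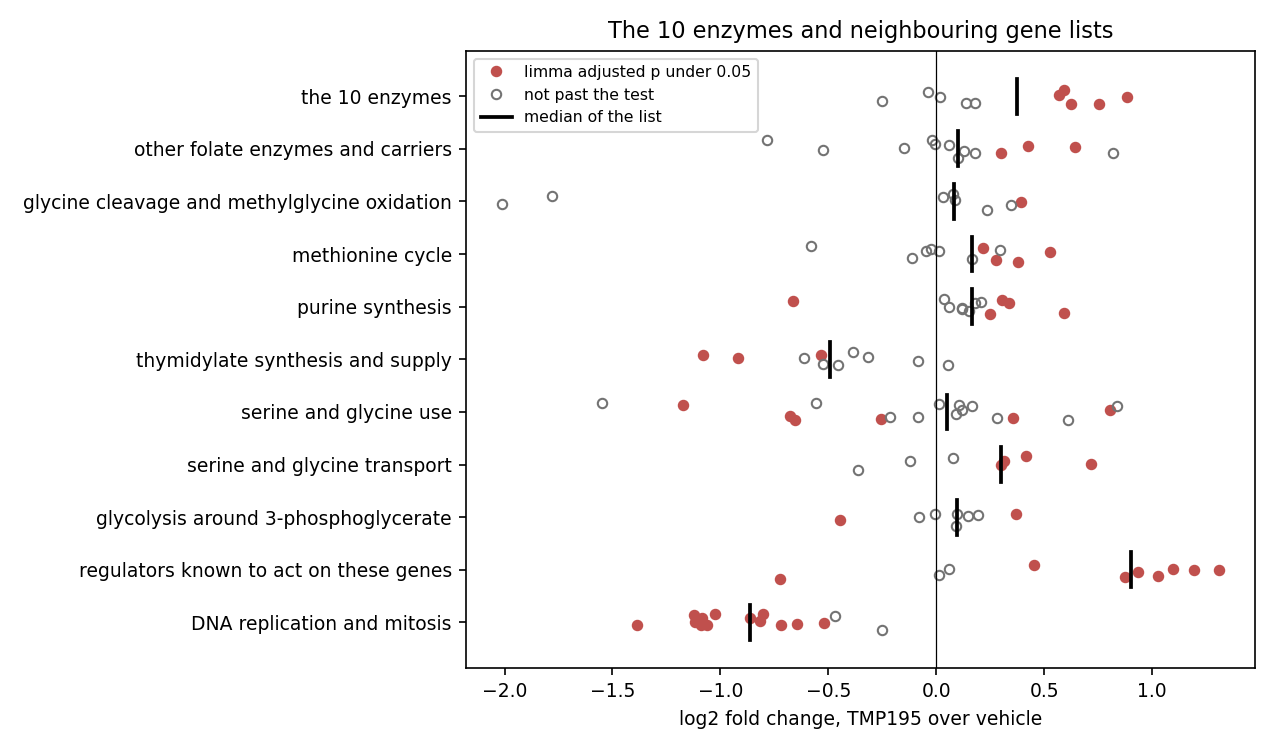
The log2 fold change, TMP195 over vehicle (horizontal axis), of each tested gene of the 10 enzymes and of 10 neighbouring gene lists, with filled points for genes that passed the limma test and a line at each list's median. The medians run from -0.86 for DNA replication and mitosis to 0.90 for the regulators, with 0.37 for the 10 enzymes.

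Transcription factors known to act on these genes in other cells were mostly higher. Of 10 regulators tested, 7 rose, 1 fell and 2 did not pass, with a median log2 fold change of 0.90. Atf4, the main inducer of serine synthesis genes, had 10683 and 11921 scaled fragments with TMP195, against 5411 and 5683 with vehicle, and rose 2.03-fold (limma adjusted p = 4.29e-12). Atf5, Cebpb and Ddit3 rose 2.48-fold, 2.29-fold and 2.14-fold (limma adjusted p = 1.82e-11, 5.26e-11 and 4.91e-10). Myc, Atf3 and Nfe2l2 rose with log2 fold changes of 0.93, 0.87 and 0.45, and Mycn fell (log2 fold change -0.72). Whether any of them acted on the enzymes was not tested.

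Genes of dividing cells and some markers of other cell types were lower with TMP195. Of 15 DNA replication and mitosis genes, 13 fell, with Mki67 at 1311 and 1414 scaled fragments with TMP195, against 2947 and 2837 with vehicle. Of 10 fibroblast markers 4 fell and 6 did not pass. Their summed level was 69667 and 72611 with TMP195, against 97634 and 94245 with vehicle. Most of that sum was Col1a1, the highest, at 47643 and 49638 with TMP195, against 69970 and 66449 with vehicle. Col3a1, the second highest, fell too (log2 fold change -0.51). The next highest, Postn, Ddr2 and Dcn, did not pass (log2 fold changes 0.12, -0.05 and -0.06), so the sum does not describe every marker. Of 8 smooth muscle and pericyte markers 4 fell and of 8 endothelial markers 2 fell, against 10.3% of all genes tested. The endothelial list summed to 381 and 379 with TMP195 and 653 and 716 with vehicle. Most of that sum was Kdr and Tek, the 2 that fell (log2 fold changes -1.07 and -0.68). The other 6 did not pass. Cdh5, Tie1, Emcn, Egfl7 and Pecam1 had log2 fold changes of -1.01, -1.08, -2.12, -0.37 and -0.11, and Vwf 0.48. Of 10 tested heart muscle markers 2 rose and 2 fell (2 higher and 5 lower with limma-voom), summing to 484534 and 483563 with TMP195 and 515092 and 519752 with vehicle. No macrophage marker (0 of 7 tested) and no red cell marker (0 of 3 tested) passed the limma test (0 also at an unadjusted p under 0.05 and with limma-voom), and no marker measured here was at 0 in all 4 libraries. The part of these shifts in the values of the 10 enzymes was not tested.

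The 4 libraries held 11768467 to 14232156 fragments, of which the 10 enzymes took 0.0918% and 0.0928% with TMP195, against 0.0672% and 0.0649% with vehicle. Across genes the correlation of log2 values was 0.984 within TMP195, 0.977 within vehicle and 0.974 to 0.975 between a library of each. Leaving out any single library ended all 5 calls among the enzymes at the minimum mean value of 1 used here, as it ended every call among all genes. With that minimum raised to 100, a setting chosen after seeing the data, Phgdh, Psph, Shmt2 and Mthfd2 passed without each of the 4 libraries. There Shmt1 missed without TMP195 replicate 1 (limma adjusted p = 0.0900) and Aldh1l2 passed without TMP195 replicate 2 (limma adjusted p = 0.0357).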

How the data were processed

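RNA was measured in 2 TMP195 and 2 vehicle libraries, grouped by their sample titles. The main table's values are a signal: fragment estimates that the authors deposited after scaling by 1 factor per library, a reading that rests on steps in the values. Within a tolerance of 0.1 fragment, 99.27 to 99.46% of the values below 10000 fragments came out whole. Cufflinks is named in the submitters' processing notes, while no version, aligner, annotation or build is stated there. A further table holds FPKM values the authors deposited for 10673 genes, with a p-value per gene that the authors deposited. The authors' deposited sheets of higher and lower genes add a ratio of group means.

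Because the values were not raw counts, limma 3.58.1 in R 4.3.3 with an intensity trend was run on log2(value + 1) over 12689 genes (mean value at least 1), with treatment as the only term and Benjamini-Hochberg adjustment over all of them. The residual degrees of freedom were 2 and the prior ones 27.4. The spread behind each p-value thus came mostly from the trend over all genes and less from that gene's own libraries. Fold changes on this scale understate those of low genes. Intervals are at 95%. The fit was also run on simulated data, with the same assumed spread for every gene. There it recovered 34% of 1.25-fold, 92% of 1.5-fold and 100% of 2-fold changes, with 13 false calls among 12414 genes. Real genes differ in spread, so these shares need not hold for them.

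The members and lists were chosen with earlier results of these data known. The rule for named genes took all 10 enzymes, up to 4 genes with the smallest p from each list, and Tyms, Mthfd2l, Gldc, Mat2a and Atf4, apart from a gene that is not reported here; of the markers, the highest and any at 0. Further list genes were named after their values were seen. No genes of like pattern were ranked, since 4 libraries in 2 groups cannot rank likeness. Alternatives varied the pseudocount, filter, scaling, test, replicate block and libraries. Strand and the handling of fragments that match several genes are not given, so overlapping genes and near copies cannot be told apart.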

Additional observations from a re-analysis of the deposited data

How the results depend on the processing

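Across 9 alternatives with all 4 libraries (pseudocounts of 0.1 and 10, no filter or minimum means of 10 and 100, scaling by library total or by trimmed means, limma-voom, and the replicate block), 5 enzymes were called higher in every one. Among the single fits of the 10 enzymes, 84 kept their side of the threshold and 5 gained a call. These 5 were all Psat1, which made 1 enzyme called lower, in place of 0, with a pseudocount of 10, minimum means of 10 and of 100, scaling by library total and limma-voom. Scaling moved the median of all genes to -0.03 at most. With the replicate number as a block, 1193 genes were higher and 1266 lower, and 5 enzymes were higher and 0 lower. Same-numbered libraries did not deviate together (correlation across genes 0.0047, and -0.06 at mean values of 100 or more), and the labels tie the numbers to nothing.

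With 1 library left out, 0 to 1081 genes were called higher and 0 to 1062 lower, and 0 to 6 enzymes higher and 0 lower. The zeros are from limma at a minimum mean of 1, where 2534 to 2665 genes and 5 or 6 enzymes still had an unadjusted p under 0.05. There a lone library is assumed to vary like the other group. The log2 fold changes of the 5 called enzymes stayed between 0.46 and 0.93. Mthfd1, Mthfd1l, Aldh1l1 and Aldh1l2 changed sign with the library left out, and of these only Aldh1l2 was called, without TMP195 replicate 2 at a minimum mean of 100, a setting added after seeing the data. Of the 42 neighbouring genes named by the rule, 13 fits with all 4 libraries lost a call, 7 gained one and 0 reversed it. The 2 planned count models were not run, since the values are not raw counts. The limma-voom fit took the values divided by each library's step and scaled them by library total. It therefore shares that scaling with the alternative scaled by library total.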
